A study of Homo sapiens with 4 samples.

Results

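MYC, a transcription factor, and 31 genes of ribosome biogenesis and of growth metabolism form the gene group described here, across 4 lines derived from PC-3, an epithelial line established from a human prostate cancer metastasis. The 32 genes were given as a list of symbols, and every probe set (a group of short array oligonucleotides read as a single value) that the platform annotation assigned to 1 of these symbols alone was taken. In this way 27 of the 32 genes were measured, by 55 of the 54613 probe sets and as 27 of the 19775 genes on the arrays. NOP56, DKC1, BOP1 and PPAN were read only by probe sets that carry several symbols, GNL3 had no probe set under its symbol in the annotation table, and these 5 genes have no value here. 14 of the 27 measured genes were read by more than 1 probe set, and the mean of a gene's probe sets was used.

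MYC binds DNA as a heterodimer with MAX, mostly at a short palindrome called the E-box, and genes that build ribosomes are among its best known targets. Ribosomes are assembled in the nucleolus, where RNA polymerase I transcribes ribosomal RNA, small nucleolar ribonucleoproteins (snoRNPs) modify it, and large sets of assembly factors fold and cut it into the small and large subunits. In cancer cells MYC is known to drive this programme together with polyamine, nucleotide and iron metabolism, and MYC has also been described as an activator of the gene for hTERT, the catalytic subunit of telomerase.

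Each line was measured on 1 Affymetrix U133 Plus 2.0 array. The line named mock and the Cre-positive line mock/cre+ had short telomeres and basal hTERT and formed the short-telomere group. LhTERTL, with long telomeres and overexpressed hTERT, and LhTERTL/cre+, with long telomeres and basal hTERT after Cre recombinase, formed the long-telomere group. Apart from Cre and hTERT, all 4 are untreated cultures of PC-3 grown to near confluency. The labels do not say whether a line is 1 clone or a pool of cells. The design thus separates telomere length from exogenous hTERT only through the single line LhTERTL/cre+, and each group of 2 holds different lines rather than repeats of 1 line. Any p-value therefore reflects only how these samples vary, and with 2 arrays a side the smallest p of an exact two-sided permutation test is 0.333.

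Per probe set, the median of the 4 deposited log2 values was 0. A value therefore says how an array stands relative to the others for that gene, and no expression level can be given. The SD of all values on an array ranged from 0.179 for LhTERTL/cre+ to 0.335 for LhTERTL. As a check of the labels, the 2 probe sets of TERT were read: in LhTERTL 1 had a value of 3.54 and the other of -0.66, while the lines with basal hTERT ranged from -0.16 to 0.12 and from -0.06 to 0.10. The difference between 3' and 5' control probe sets, a sign of RNA quality, lay between -0.02 and 0.01 for GAPDH and between -0.08 and 0.05 for ACTB on the 4 arrays. Whether markers of a cell type are present could not be checked, since centring removes levels. In these bulk RNA samples, fewer cells of a type and less RNA per cell cannot be told apart, and the quantile normalisation of RMA removes any difference in total RNA.

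The measured genes of this group were low in 1 array, that of the line overexpressing hTERT. 24 of the 27 genes, or 88.9%, had their lowest value in LhTERTL, against 30.5% of all 19775 genes on the arrays. Over the 27 genes the median value was 0.04 in mock, -0.31 in LhTERTL, 0.07 in mock/cre+ and 0.02 in LhTERTL/cre+. FBL, PES1 and RRP12 were the 3 exceptions. Among the 3 lines with basal hTERT the genes lay close together, with a median range of 0.17 over those lines (0.24 over all genes), and for 18 of the 27 genes the gap between LhTERTL and the lowest of these lines was wider than that range, which held for 10.9% of all genes. No difference passed a test across all genes, as given below, so these are values of 4 arrays.

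**Figure D1:**
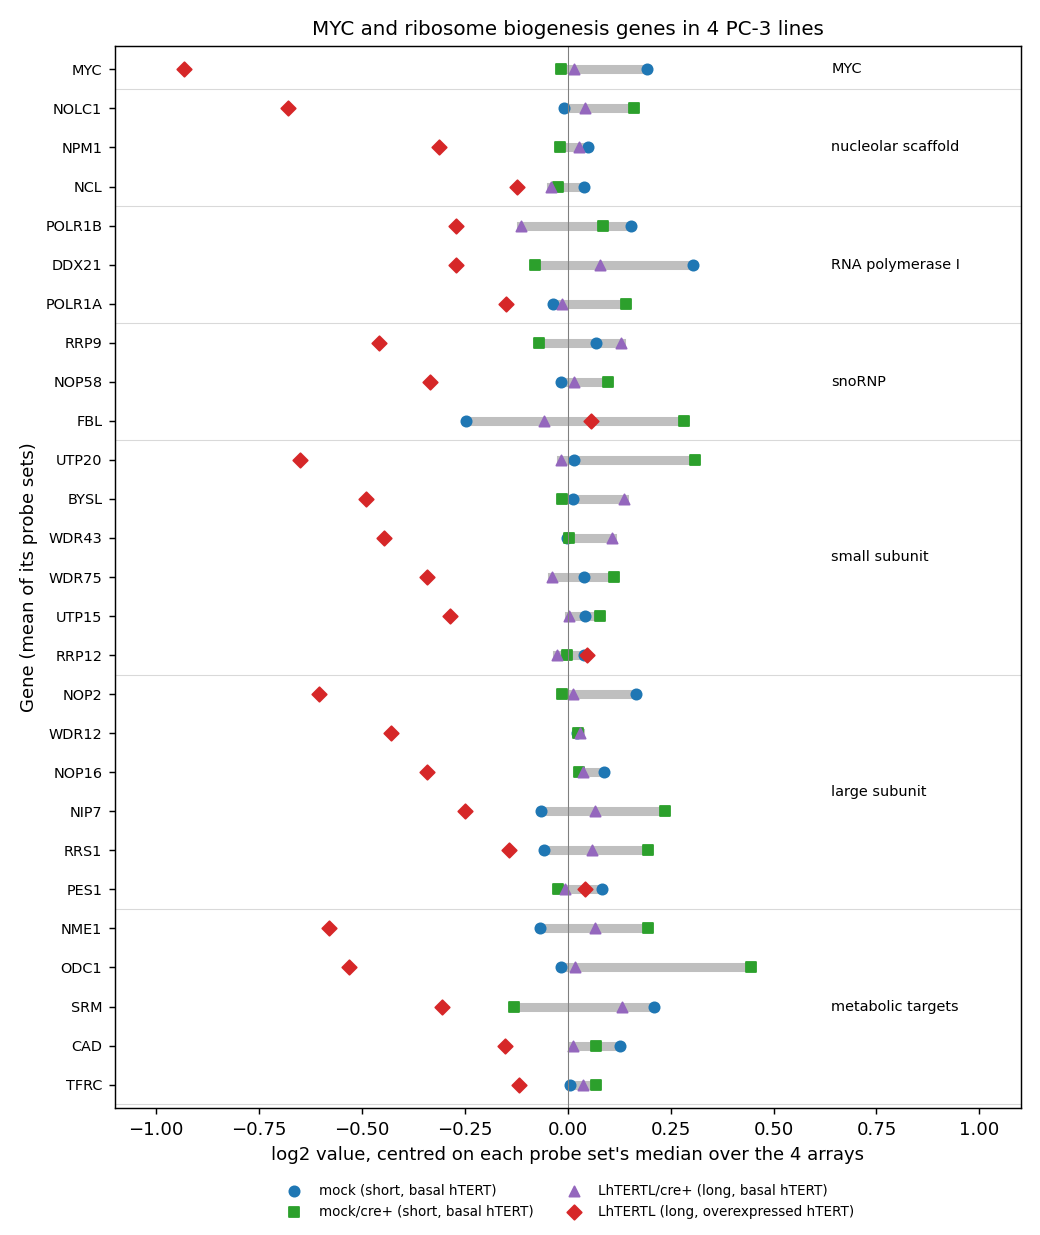
Centred log2 value (x axis) of the 27 measured genes (rows, grouped by role) on the 4 arrays; each point is 1 array and the grey bar spans the 3 lines with basal hTERT. The LhTERTL point lies left of the bar in 24 rows, and in FBL, PES1 and RRP12 it lies on the bar or beyond its right end.

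MYC itself was read by 1 probe set. It stood at 0.19 in mock, -0.93 in LhTERTL, -0.02 in mock/cre+ and 0.02 in LhTERTL/cre+. LhTERTL was the low array by 0.92 below the lowest of the other 3, whose whole range was 0.21. The long-telomere and short-telomere groups overlapped because LhTERTL/cre+ lay between both short-telomere lines. LhTERTL was 2.18-fold below mock (-1.13 on the log2 scale), while LhTERTL/cre+ differed from mock/cre+ by 0.03. The mean difference of long minus short was -0.55 ± 0.35 (moderated SE, n = 2 per group, limma adjusted p = 1), and without LhTERTL it was -0.07.

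The promoters of the group were searched for the E-box letters CACGTG, which read the same on both strands. Genes of this kind are known MYC targets, so the share with the motif follows from the list and does not depend on the array values. The search window ran from 250 bases before each RefSeq start to 50 bases after it (GRCh38.p14). 26 of the 32 genes had a promoter entry, and 12 of these, or 46.2%, held the motif, against 8.77% of 27305 genes with an entry. MYC, NOLC1, NOP58, RRP12, RRS1 and BOP1 had no entry. The motif lay upstream of the start or reached up to it in SRM, ODC1, RRP9, DDX21 and UTP20, and began at or after the start in WDR43, GNL3, BYSL, NOP2, NME1, FBL, PES1 and, in a second copy, ODC1. A match describes the letters only and is not a record of binding.

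The 120 bases that hold the upstream motif are printed for these 5 genes, with the motif in capitals and each written 5′ to 3′ along its gene. They show where the motif stands. These 5 genes were all lowest in LhTERTL, as were 88.9% of the 27 measured genes. FBL and PES1, which hold the motif after the start, were not lowest there. The windows are chr1:11060148-11060267 on the minus strand for SRM, where the motif began 199 bases before the start, and chr2:10448012-10448131 on the minus strand for ODC1, where it began 29 bases before it. For RRP9 the window is chr3:51941904-51942023 on the minus strand and the motif began 5 bases before the start. DDX21 is at chr10:68956528-68956647 on the plus strand with the motif 31 bases before the start of 1 of its 2 listed promoters, and UTP20 is at chr12:101279986-101280105 on the plus strand with the motif 10 bases before the start.
SRM: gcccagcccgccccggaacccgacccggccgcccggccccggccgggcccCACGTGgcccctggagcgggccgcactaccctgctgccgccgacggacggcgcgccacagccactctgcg
ODC1: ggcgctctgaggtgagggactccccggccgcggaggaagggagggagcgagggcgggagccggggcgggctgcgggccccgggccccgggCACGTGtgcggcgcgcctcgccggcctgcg
RRP9: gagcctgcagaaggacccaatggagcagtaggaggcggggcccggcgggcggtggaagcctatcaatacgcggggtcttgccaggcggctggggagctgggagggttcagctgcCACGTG
DDX21: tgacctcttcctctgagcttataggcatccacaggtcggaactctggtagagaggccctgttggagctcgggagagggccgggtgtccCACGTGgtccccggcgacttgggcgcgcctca
UTP20: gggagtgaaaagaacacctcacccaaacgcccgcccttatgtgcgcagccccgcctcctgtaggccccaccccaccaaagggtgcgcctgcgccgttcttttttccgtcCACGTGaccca

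Among the 22 measured genes with a promoter entry, the 11 with the motif had a median difference of LhTERTL minus mock of -0.51, with a range of -0.77 to 0.30. The 11 without it had a median of -0.33 and a range of -0.45 to -0.11. The ranges overlapped, also without FBL, which holds the motif and was the gene highest above mock. PES1 and WDR43, with the motif as well, were at -0.04 and -0.44. In the other Cre-matched pair the medians were 0.03 with the motif and -0.06 without it.

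By gene mean, the nucleolar scaffold genes were all lowest in LhTERTL. NOLC1, a chaperone of snoRNPs in the nucleolus, stood at -0.01 in mock, -0.68 in LhTERTL, 0.16 in mock/cre+ and 0.04 in LhTERTL/cre+, and its 3 probe sets were each at least 0.62 lower in LhTERTL than in mock. NPM1, the nucleolar chaperone nucleophosmin, stood at 0.05, -0.31, -0.02 and 0.03 in the same order of arrays, so that only LhTERTL lay apart. NCL, nucleolin, an RNA-binding protein of ribosomal RNA transcription and processing, spanned less, at 0.04, -0.12, -0.02 and -0.04. In this mean both long-telomere arrays lay below both short-telomere arrays. Of the 2 probe sets of NCL, 1 was lowest in LhTERTL, at -0.34, and the other was highest there, at 0.09. The differences of long minus short were -0.40 ± 0.28 for NOLC1, -0.16 ± 0.16 for NPM1 and -0.09 ± 0.11 for NCL (limma, moderated SE, n = 2 per group, adjusted p = 1 for each).

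In the RNA polymerase I set, LhTERTL was the lowest array for each of the 3 genes, by 0.11 to 0.19 below the next. POLR1B, the second-largest subunit of the polymerase, stood at 0.15 in mock, -0.27 in LhTERTL, 0.09 in mock/cre+ and -0.11 in LhTERTL/cre+. Its long-telomere arrays lay below both short-telomere arrays, and its long minus short difference of -0.31 ± 0.12 had an unadjusted p of 0.0617 (limma, adjusted p = 1). DDX21, a helicase that acts in ribosomal RNA transcription and processing, stood at 0.30 in mock, -0.27 in LhTERTL, -0.08 in mock/cre+ and 0.08 in LhTERTL/cre+. Here mock was set apart at the high end as LhTERTL was at the low end. POLR1A, the largest subunit, differed least, at -0.04, -0.15, 0.14 and -0.01 in mock, LhTERTL, mock/cre+ and LhTERTL/cre+. That is a mean of 3 probe sets, which ran from -0.32 to 0.12 for LhTERTL minus mock. Of these, 2 were lowest in LhTERTL.

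The snoRNP genes did not move alike. RRP9, a protein that binds the snoRNP needed for the first cuts of the ribosomal RNA precursor, stood at 0.07 in mock, -0.46 in LhTERTL, -0.07 in mock/cre+ and 0.13 in LhTERTL/cre+. NOP58, a core protein of the box C/D class, stood at -0.02, -0.33, 0.10 and 0.02 in that order, with LhTERTL alone at the low end in both genes. FBL, fibrillarin, the methyltransferase of the same class, was lowest in mock at -0.25 and highest in mock/cre+ at 0.28, with LhTERTL at 0.06 and LhTERTL/cre+ at -0.06 between them. FBL thus differed between the short-telomere lines by 0.53, more than between the group means, which were apart by -0.02 ± 0.22 (limma, adjusted p = 1).

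For small-subunit assembly, 5 of the 6 genes were lowest in LhTERTL. UTP20, a large scaffold protein of the small-subunit processome, stood at 0.02 in mock, -0.65 in LhTERTL, 0.31 in mock/cre+ and -0.02 in LhTERTL/cre+. Both long-telomere arrays were below both short-telomere arrays, and the long minus short difference was -0.49 ± 0.26 (limma, adjusted p = 1). WDR75 stood at 0.04, -0.34, 0.11 and -0.04, and UTP15 at 0.04, -0.29, 0.08 and 0.00, in mock, LhTERTL, mock/cre+ and LhTERTL/cre+. Both encode subunits of the complex that binds the ribosomal RNA precursor first, and in both the groups did not overlap, though LhTERTL/cre+ was only 0.15 (WDR75) and 0.08 (UTP15) below mock/cre+. WDR43, of the same complex, and BYSL, a late assembly factor, were 0.44 and 0.50 lower in LhTERTL than in mock, and highest in LhTERTL/cre+. RRP12, which takes part in export of the small subunit, was nearly flat at 0.04, 0.05, 0.00 and -0.03, with LhTERTL the highest array.

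For large-subunit assembly, 5 of the 6 genes were lowest in LhTERTL. NOP2, a methyltransferase of large-subunit ribosomal RNA, stood at 0.17 in mock, -0.61 in LhTERTL, -0.01 in mock/cre+ and 0.01 in LhTERTL/cre+. Its difference of -0.77 between LhTERTL and mock was second only to that of MYC among the 27 genes. WDR12, a partner of PES1 and BOP1 in a complex that processes large-subunit RNA, had a value of -0.43 in LhTERTL, while the others lay between 0.02 and 0.03. This narrow range is that of a mean of 3 probe sets, whose own ranges over the basal hTERT lines were 0.14, 0.12 and 0.04. NOP16, a nucleolar assembly factor, stood at 0.09, -0.34, 0.03 and 0.04 in mock, LhTERTL, mock/cre+ and LhTERTL/cre+. The long minus short differences of NOP2, WDR12 and NOP16 were -0.37 ± 0.25, -0.22 ± 0.19 and -0.21 ± 0.17 (limma, adjusted p = 1 for each). PES1 itself lay between -0.02 and 0.08 in all 4 arrays, with LhTERTL at 0.04. NIP7 and RRS1, also large-subunit assembly factors, were 0.18 and 0.08 lower in LhTERTL than in mock.

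The 5 metabolic targets were all lowest in LhTERTL. ODC1, ornithine decarboxylase, the rate-limiting enzyme of polyamine synthesis, stood at -0.02 in mock, -0.53 in LhTERTL, 0.45 in mock/cre+ and 0.02 in LhTERTL/cre+. It was set apart at both ends, low in LhTERTL and high in mock/cre+, and differed by -0.51 and -0.43 in the Cre-negative and Cre-positive pairs. NME1, a nucleoside diphosphate kinase, stood at -0.07, -0.58, 0.19 and 0.07 in the same order, with LhTERTL 0.51 below the lowest of the others. CAD, which carries out the first steps of pyrimidine synthesis, stood at 0.13, -0.15, 0.07 and 0.01, and its groups did not overlap. SRM, spermidine synthase, was 0.52 lower in LhTERTL than in mock but 0.26 higher in LhTERTL/cre+ than in mock/cre+. TFRC, the transferrin receptor of iron uptake, spanned least, at 0.01, -0.12, 0.07 and 0.04. The long minus short differences of ODC1, NME1 and CAD were -0.47 ± 0.27, -0.32 ± 0.26 and -0.17 ± 0.12 (limma, adjusted p = 1 for each).

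Long-telomere and short-telomere lines were compared over all 4 arrays to ask whether the group follows telomere length. No gene passed at an adjusted p of 0.05 (0 of 19775 genes, 0%, and 0 of 54613 probe sets, 0%; limma, two-sided, Benjamini-Hochberg), and 156 genes and 695 probe sets had an unadjusted p below 0.05, none of the 27 genes among them. All 27 differences were below 0 (24 with arrays centred on housekeeping genes, where FBL, PES1 and RRP12 turned), from -0.55 for MYC to -0.01 for RRP12, with a median of -0.18 against -0.01 over all genes, of which 51.9% were below 0. Without LhTERTL the median was -0.03. In 6 of the 27 genes (22.2%) both long-telomere arrays lay below both short-telomere arrays, against 11.7% of all genes. They were NCL, POLR1B, UTP20, UTP15, WDR75 and CAD. In 0 of the 27 both long-telomere arrays lay above, against 11.4% of all genes. Both counts lean on LhTERTL, the lowest array in 24 of the 27 genes. They therefore cannot show whether the group follows telomere length. These are gene means: NCL, POLR1B, UTP15 and CAD each had a probe set whose groups overlapped. With the probe set of largest SD the count of 6 became 4. The authors' deposited tables of higher and of lower probe sets list 0 of the 55 probe sets of the group, and hold only 0.227% and 0.236% of all probe sets.

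The 2 Cre-matched pairs share no array and were read separately. Without Cre, LhTERTL was below mock in 25 of the 27 genes (23 with housekeeping centring), against 54.8% of all genes, with a median difference of -0.42 and a range of -1.13 to 0.30. At least 0.5 lower (1.41-fold) were 10 genes, or 37.0% (MYC, NOP2, NOLC1, UTP20, DDX21, RRP9, SRM, ODC1, NME1 and BYSL), against 5.55% of all genes, and 0 were at least 0.5 higher, against 7.18%. With Cre, LhTERTL/cre+ was below mock/cre+ in 16 of the 27 genes, against 46.7% of all genes, with a median of -0.03. None was 0.5 lower, against 4.85% of all genes, and none 0.5 higher, against 2.95%. In 14 of the 27 genes (51.9%) the long-telomere line was the lower in both pairs, against 22.1% of all genes. Since 25 of the 27 were already lower in the Cre-negative pair, this count largely repeats the 16 of the Cre-positive pair. It is not a measure of agreement between the pairs. With 1 array on each side these differences have no test.

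**Figure D2:**
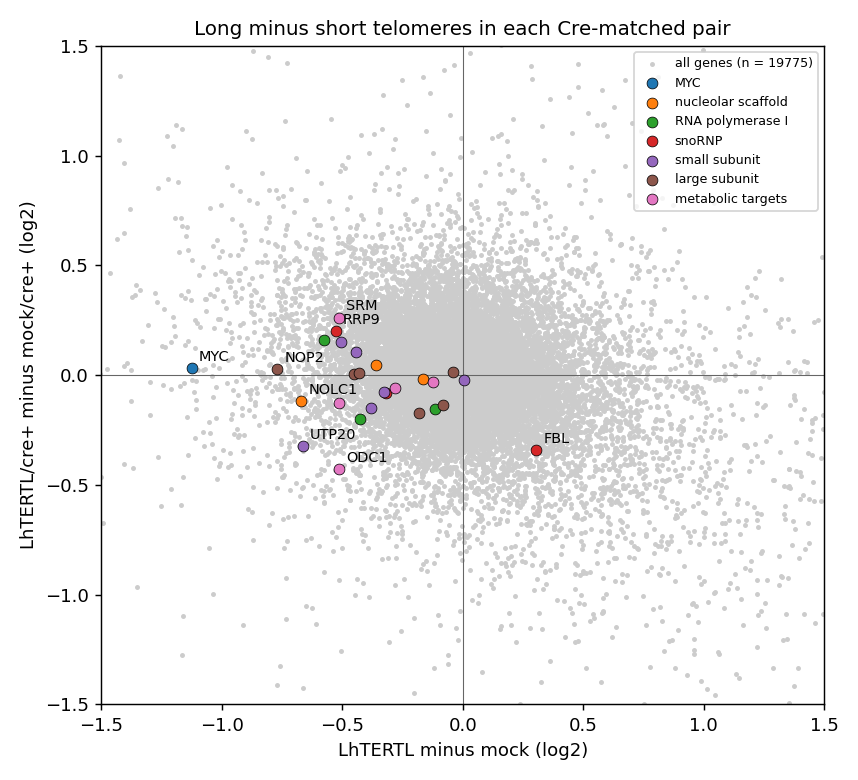
Log2 difference of LhTERTL minus mock (x axis) and of LhTERTL/cre+ minus mock/cre+ (y axis), 1 point per gene, with the 27 genes coloured by role over all 19775 genes in grey; 300 genes lie outside the range of ±1.5 shown. The genes of the group extend to the left along the x axis to -1.13 for MYC and stay between -0.43 and 0.26 on the y axis.

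The remaining differences reuse these arrays and are given side by side, without a test. Against LhTERTL/cre+, the line with the same long telomeres and basal hTERT, LhTERTL had a median of -0.35 and was lower in 24 of the 27 genes, against 51.3% of all genes. Of these, 9 (33.3%) were at least 0.5 lower, against 6.8% of all genes, and 0 were 0.5 higher, against 7.28%. LhTERTL/cre+ and mock, which differ in telomere length and Cre but both have basal hTERT, had a median difference of -0.02. In 25 of the 27 genes they lay within 0.2 of each other, as did 70.7% of all genes, none was 0.5 lower (1.4% of all genes) and none 0.5 higher (2.55%). The short-telomere lines mock/cre+ and mock had a median difference of 0.00, with 0 genes 0.5 lower (4.93% of all genes) and 1, FBL, 0.5 higher (7.7%).

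The labelled hTERT status was then fitted across all genes, LhTERTL against the 3 lines with basal hTERT. This comparison was added after the values had been seen, and the lone array is assumed to vary like the other 3. No gene passed an adjusted p of 0.05 (0%; limma), the smallest adjusted p of any gene being 0.0909. At an unadjusted p below 0.05, 2543 genes differed in either direction, and 15 of the 27 genes (55.6%) were lower, against 6.54% of all genes. That count of 15 was 8 with Cre status as a block, 10 with housekeeping centring and 6 without the array of LhTERTL/cre+. MYC differed by -0.996 ± 0.142 (limma, adjusted p = 0.135), UTP20 by -0.75 ± 0.18, NOLC1 by -0.74 ± 0.13, ODC1 by -0.68 ± 0.22, NOP2 by -0.66 ± 0.13 and NME1 by -0.64 ± 0.15. The calls turned on the array of mock/cre+: without it 485 genes (2.45%) passed the adjusted threshold, MYC alone of the group among them, at -1.04 (limma adjusted p = 0.0463). That fit sets 1 array against 2 and was made after LhTERTL had been seen to be the low array, so it restates that observation and adds no independent evidence.

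Lists of other genes of the same pathway, disjoint from the 27, were read in the same way. NOC2L and CCDC86, nucleolar proteins of the large-subunit list, were 0.85 and 0.80 lower in LhTERTL than in mock, and MRTO4, an assembly factor, 0.45 lower. In that list 36 of 45 genes (80.0%) were lowest in LhTERTL, with a median of LhTERTL minus the basal hTERT lines of -0.27. In the small-subunit list 33 of 41 genes (80.5%) were lowest there, with a median of -0.24. DIMT1, a ribosomal RNA methyltransferase, was 0.89 lower than in mock, NOB1, the nuclease that makes the final cut of small-subunit RNA, 0.56 lower, and NOP14, NOC4L and UTP23 of the processome 0.54, 0.53 and 0.41 lower. DIMT1 and NOB1 went the other way in the Cre-positive pair, by 0.41 and 0.34. The members' median on this scale was -0.37 and that of all genes -0.01. None of these genes passed the limma test of long minus short.

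Of 14 other RNA polymerase I genes, 9 (64.3%) were lowest in LhTERTL, with a median of -0.18 against the basal hTERT lines. TCOF1, the nucleolar protein treacle, POLR1E, a polymerase subunit, and TTF1, a termination factor, were 0.64, 0.59 and 0.49 lower in LhTERTL than in mock. POLR1G, another subunit, was 0.28 lower and was set apart at the other end by mock/cre+, at 0.92. Of 10 other snoRNP genes, 7 (70.0%) were lowest in LhTERTL, with a median of -0.21. NAT10, an RNA acetyltransferase, NHP2, a core protein of the box H/ACA class, and NUFIP1, a snoRNP assembly factor, were 0.87, 0.41 and 0.27 lower than in mock.

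By the count of lowest arrays, the ribosomal proteins themselves were close to the background. 18 of 53 measured genes (34.0%) were lowest in LhTERTL, near the 30.5% of all genes. Their median against the basal hTERT lines was -0.04. LhTERTL was below mock in 40 of the 53, against 54.8% of all genes, with a median difference of -0.05. It was below LhTERTL/cre+ in 35 of the 53, against 51.3% of all genes. Probe sets for these proteins may also match their processed pseudogenes. RPS29, RPS21, RPS15A, RPS15 and RPS23, all proteins of the small subunit, were 0.53, 0.52, 0.42, 0.39 and 0.25 lower in LhTERTL than in mock. RPS29 and RPS21 were 0.49 and 0.24 higher in LhTERTL/cre+ than in mock/cre+. The E-box letters were found in 6.35% of 63 ribosomal protein promoters. The share was 40.5% of 37 promoters for the other small-subunit genes and 33.3% of 42 for the other large-subunit genes. It was 42.9% of 7 for other snoRNP genes, 8.33% of 12 for other RNA polymerase I genes and 40.0% of 35 for other MYC target genes. For the G1/S and G2/M genes described below it was 15.6% of 32 and 20.0% of 25. A link between the motif and low values in LhTERTL was not tested.

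Other MYC target genes were lowest in LhTERTL in 20 of 37 cases (54.1%), with a median of -0.19 against the basal hTERT lines. CTPS1, which makes CTP, was 1.05 lower in LhTERTL than in mock and 0.21 lower in the Cre-positive pair, and PRPS1, which makes the precursor of nucleotides, was 0.31 and 0.64 lower. MTHFD1, an enzyme of folate metabolism, was 0.80 higher in LhTERTL than in mock, and SLC3A2, part of amino acid transporters, stood at -1.45 in mock/cre+ and between -0.28 and 0.49 elsewhere. Of the MYC partners and regulators, 10 of 24 genes (41.7%) were lowest in LhTERTL, with a median of -0.08. MXD1, which competes with MYC for MAX, stood at 0.15 in mock, 0.47 in LhTERTL, -0.92 in mock/cre+ and -0.15 in LhTERTL/cre+. WDR5, a cofactor of MYC on chromatin, and PIM1, a kinase that acts with MYC, were 0.50 and 0.54 lower in LhTERTL than in mock, and SKP2, a ubiquitin ligase component, was high in mock/cre+ alone, at 1.11.

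**Figure D3:**
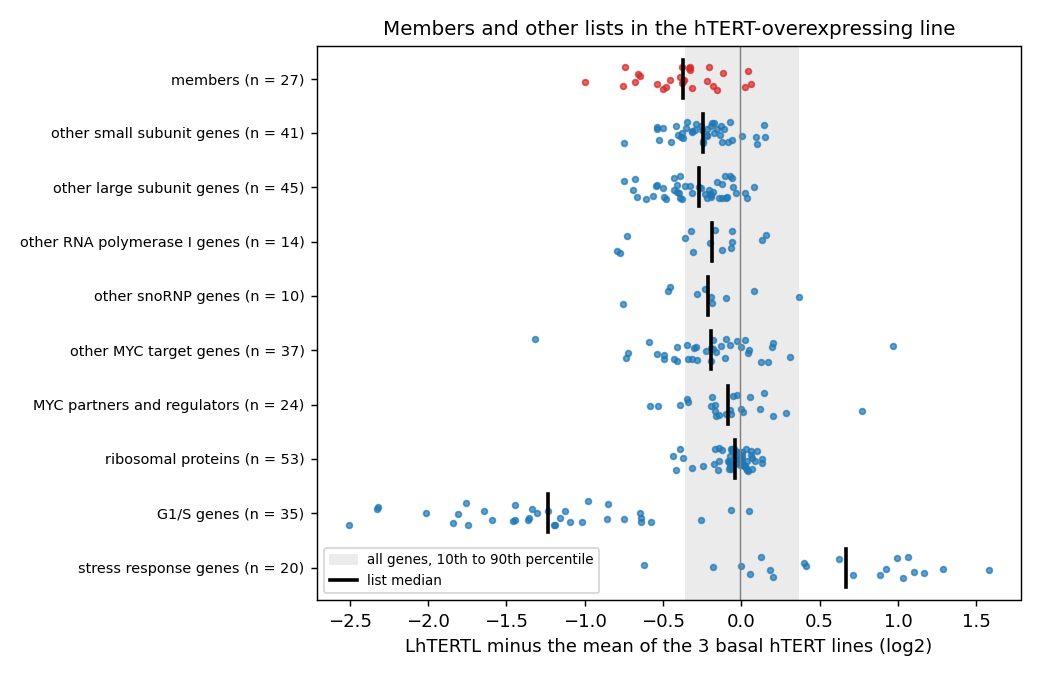
Log2 difference of LhTERTL minus the mean of the 3 lines with basal hTERT (x axis) for the genes of each list (rows), 1 point per gene, with the list median as a black bar and the 10th to 90th percentile of all genes shaded. The medians are -0.37 for the 27 genes, -0.24 and -0.27 for the other small-subunit and large-subunit genes, -0.04 for ribosomal proteins, -1.23 for G1/S genes and 0.67 for stress response genes.

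Cell cycle genes were low in LhTERTL as well, and more so. Of 35 genes of the G1/S transition and DNA replication, 33 (94.3%) were lowest in LhTERTL, with medians of -0.25 in mock, -0.99 in LhTERTL, 0.75 in mock/cre+ and 0.27 in LhTERTL/cre+. RRM2, a subunit of ribonucleotide reductase, stood at -2.08 in LhTERTL and POLE2, a DNA polymerase subunit, at -2.19. Of 30 G2/M genes, 28 (93.3%) were lowest there, with medians of -0.12, -0.46, 0.45 and 0.12. Among the basal hTERT lines the median range was 0.84 for G1/S genes and 0.57 for G2/M genes, against 0.17 for the 27 genes. The array of mock/cre+ was the high one for both cell cycle lists. Stress response genes had medians of 0.12, 0.14, -1.16 and -0.03, low in mock/cre+ and not in LhTERTL. The part of growth state or cell cycle in the values of MYC and the ribosome biogenesis genes was not tested. Markers of cell types differed in LhTERTL too, as differences from the basal hTERT lines. The 5 epithelial markers ranged from -0.42 to 1.18, with a median of -0.04. The adhesion proteins CDH1 and EPCAM stood at 1.18 and 0.70 and were lowest in LhTERTL/cre+. The other 3, the keratins KRT8, KRT18 and KRT19, were below 0. The 4 endothelial markers ranged from -0.82, for the receptor KDR, to 0.08, with a median of -0.39. The 4 leukocyte markers lay between -0.17 and 0.07 and the 7 fibroblast markers between -0.17 and 0.33. The part of these differences in the result was not tested.

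Housekeeping genes were lowest in LhTERTL in 11 of 21 cases (52.4%), with a median of -0.08 against the basal hTERT lines. With each array centred on that list, 22 of the 27 genes remained lowest in LhTERTL and the exceptions were FBL, NCL, PES1, RRP12 and RRS1.

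Probe sets of 1 gene did not always run together. Of the 55 probe sets, 44 (80.0%) were lowest in LhTERTL, against 29.1% of all probe sets on the arrays, and 49 (89.1%) were below mock in that array, against 54.5% of all. POLR1B spread from -0.85 to -0.06 over its 4 probe sets for LhTERTL minus mock, and NPM1 from -0.62 to -0.09 over 3, without a change of sign. The long minus short difference of PES1 was -0.20 for 1 probe set and 0.17 for the other, and that of TFRC ran from -0.24 to 0.16 over 5 probe sets, so the gene means of PES1 and TFRC, which enter the counts above with the sign of the mean, join probe sets that ran in opposite directions. RRP12 had 1 probe set at 0.35 for LhTERTL minus mock and the other 4 between -0.10 and -0.06. The part of the transcript that each probe set reads was not used here.

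**Figure D4:**
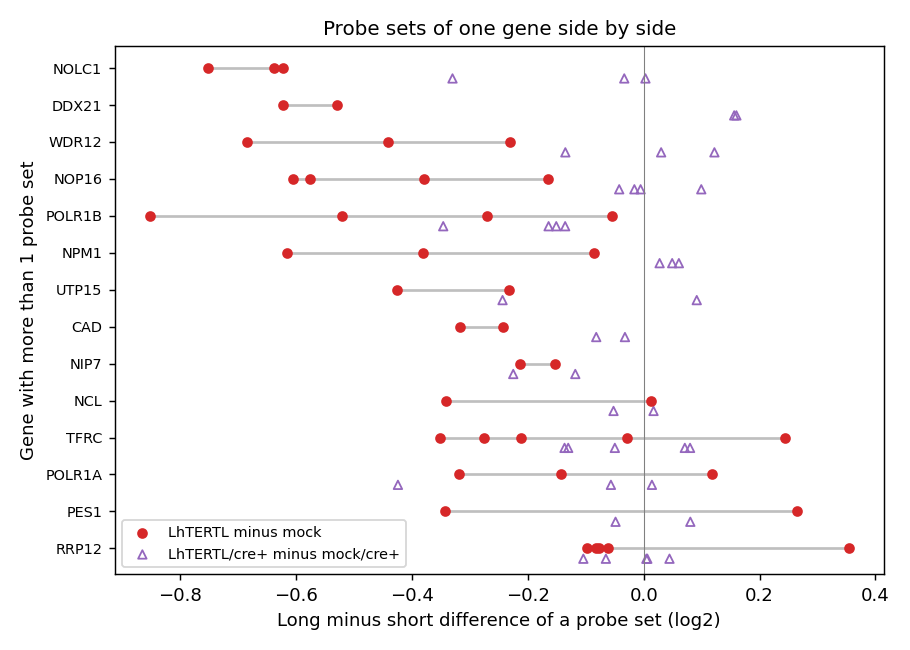
Log2 differences of single probe sets (x axis) for the 14 genes read by more than 1 probe set (rows): LhTERTL minus mock as filled circles joined by a line and LhTERTL/cre+ minus mock/cre+ as open triangles. All circles are left of 0 for 9 genes, and NCL, TFRC, POLR1A, PES1 and RRP12 have circles on both sides.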

How the data were processed

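RNA of 4 PC-3 lines was read on 1 array each, and groups were taken from the labelled telomere length. The log2 values deposited came from RMA, per the submitters' processing notes, which name no software version. Every row had a median of 0 (largest deviation 5e-07), so rows had been centred, and the scale was taken as log2. For that reason no filter on level was possible, and depth has no counterpart beyond the number of arrays. In the deposited lower list, 2 of the 4 value columns did not equal the series table, and the list served for names alone.

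Of 54675 probe sets, 62 controls were left out. The platform annotation gave 1 symbol to 41091 of the remaining 54613, several to 1801 and none to 11721. Genes are means of probe sets with 1 symbol. Groups were compared with lmFit and eBayes of limma 3.58.1 (R 4.3.3), checked on simulated arrays, over the whole table with Benjamini-Hochberg adjustment at 0.05; ± is the moderated standard error. Cre status was a block in an alternative, and other alternatives changed array scaling, gene summary, probe set kind and the arrays used. Promoter letters came from RefSeq entries of GRCh38.p14, matched by symbol. Python 3.11.15, pandas 2.3.3 and matplotlib 3.10.9 did the rest.

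The members and lists were chosen with earlier results of these data known. The text gives array values for MYC and, per role, the 3 largest differences of long minus short and the smallest. From other pathway lists it names the 3 largest of long minus short and the 2 largest of LhTERTL minus mock. Other members are named by role.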

Additional observations from a re-analysis of the deposited data

Results flagged for a closer look

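Pairs of opposite sign were the reason to list the results that follow: the long-telomere line was below the short-telomere line without Cre and above it with Cre, or the reverse. Each pair holds 1 array a side, so the difference between pairs was not tested, and its causes were not tested either. Values are the log2 difference with Cre (LhTERTL/cre+ minus mock/cre+) less the difference without Cre (LhTERTL minus mock). No group had enough arrays for a check of single arrays that stand apart.

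This was the case for 13 of the 27 genes. Over all genes, LhTERTL was below mock in 54.8% and LhTERTL/cre+ below mock/cre+ in 46.7%, while 22.1% were lower in both pairs. Opposite signs were thus no more common in the group than over all genes. For MYC the pairs differed by 1.16, for NOP2 by 0.80, for SRM by 0.78, for DDX21 and RRP9 by 0.73 each, for BYSL by 0.65 and for WDR43 by 0.55. In each of these 7 genes LhTERTL was at least 0.44 below mock, while the Cre-positive difference lay between 0.03 and 0.26. WDR12, NOP16 and NPM1 had smaller values of 0.46, 0.44 and 0.41, with a Cre-positive difference of 0.05 or less. PES1, at 0.056, and RRP12, at -0.030, were near 0 in both pairs. FBL went the other way, at -0.65, with LhTERTL 0.30 above mock and LhTERTL/cre+ 0.34 below mock/cre+.

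Among the other pathway genes named, 14 had pairs of opposite sign. The differences were 1.30 for DIMT1, 1.06 for NAT10, 1.02 for RPS29, 0.90 for NOB1, 0.87 for NOC2L, 0.85 for CCDC86 and 0.82 for POLR1E. They were 0.75 for RPS21, 0.69 for TCOF1, 0.59 for PIM1, 0.53 for TTF1 and 0.52 for RPS15A. SKP2, at -1.28, and MTHFD1, at -1.04, were higher in the long-telomere line without Cre and lower with it. Of the list medians, that of the other large-subunit genes differed by 0.33, that of the ribosomal proteins by 0.095 and that of the MYC partners and regulators by 0.082.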

How the results depend on the processing

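No probe set or gene was called for long minus short under any alternative run, the Cre block and each left-out array included. With arrays centred on the housekeeping list, the long minus short differences of FBL, PES1 and RRP12 turned to 0.033, 0.039 and 0.043. With the probe set of largest SD, PES1 and RRP12 turned to 0.17 and 0.12, and with only probe sets not ending in _s_at or _x_at, NCL and TFRC turned to 0.015 and 0.061. The other 120 comparisons of single genes kept their direction. The single MYC probe set ends in _s_at, so that alternative gave no MYC value.

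The members' median of LhTERTL minus mock was -0.34 (housekeeping centring), -0.39 (median of probe sets) and -0.50 (largest SD). That of LhTERTL minus LhTERTL/cre+ was -0.25 and -0.48 (housekeeping, largest SD). That of mock/cre+ minus mock was -0.027, 0.074 and 0.039 (housekeeping, largest SD, without _s_at and _x_at). Against the basal hTERT lines it was -0.42 (Cre block), -0.27 (housekeeping) and -0.46 (largest SD). The cause of these shifts was not tested.

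For hTERT status, leaving out 1 basal array gave 0 to 485 genes and 0 to 227 probe sets called, the upper values without mock/cre+, and -1.04 to -0.93 for MYC. The limma adjusted p of MYC ranged from 0.0463 to 0.641 over the left-out arrays and was 0.482 with the Cre block. Housekeeping centring called 6 probe sets and dropping _s_at and _x_at probe sets 4, against 0. Of the 27 genes, those with long-telomere below short-telomere arrays numbered 7 (without LhTERTL) to 24 (without LhTERTL/cre+) when 1 array was left out, against 6. By construction, 3 arrays separate more easily. The share over all genes was not computed with an array left out, so these counts have no background and no rise above it can be read from them. The labels carry no replicate numbers, and lines were paired only by Cre status, as the Cre block. The number of arrays limits every comparison.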
